A study of Mus musculus with 8 samples.

Results

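The choroid plexus transcripts described here are 8 genes, Ttr, Folr1, Kl, Kcnj13, Clic6, Sostdc1, Otx2 and Prlr, chosen by symbol among the 54752 genes counted in libraries of the mouse cerebral cortex. All 8 were found in the tables, and all 8 passed the filter on low counts, which kept 17136 genes. The libraries came from the right cerebral cortex of wild-type C57BL/6 mice 3 weeks after a Sham operation (4 mice) or a bilateral carotid artery stenosis (BCAS) operation (4 mice), with 1 adult male mouse per library. BCAS narrows both common carotid arteries with metal microcoils, the narrower one on the right side, and lowers the blood flow to the forebrain. The labels name no other allele or agent in either group. The total counts lay between 16759364 and 21794435 per library, and 3 counts, the limit that a count of 0 allows, correspond to between 0.138 and 0.179 CPM (counts scaled to a library size of 1000000). All 14 genes of a list of cortical excitatory neuron markers had counts in the libraries and passed the filter, and Slc17a7, the vesicular glutamate transporter of these neurons, stood at 1630 ± 60.7 CPM (SD, n = 4) in the Sham group and 890 ± 349 CPM (SD, n = 4) in the BCAS group.

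The choroid plexus is a frond of epithelium on fenestrated capillaries that hangs in the ventricles of the brain and secretes the cerebrospinal fluid. It is not a part of the cortex, but it lies close to it along the ventricle wall. Its epithelial cells pump sodium, bicarbonate and chloride towards the ventricle, carry folate and other nutrients from the blood, and secrete carrier proteins and growth factor antagonists. Some of the 8 genes are also transcribed at low levels in neurons, vessels or meninges. In bulk tissue, more cells of a type and more RNA per cell cannot be told apart, and what was cut out with each piece of cortex is not recorded in the labels.

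The 8 transcripts were present in every library, and the library of Sham mouse 3 stood apart from the other 7. Their summed level was 25.3, 53.8, 804 and 18.0 CPM in Sham mice 1 to 4, and 35.6, 47.2, 41.3 and 76.2 CPM in BCAS mice 1 to 4. Sham mouse 3 was the highest library by far, Sham mouse 4 the lowest, and the 4 BCAS mice lay between Sham mouse 1 and Sham mouse 3, so the groups overlapped. In counts, the sum was 14063 in Sham mouse 3, or 0.08% of that library, against 299 to 1399 in the other libraries. Without Ttr the sum was 108 CPM in Sham mouse 3 and 10.3 to 31.9 CPM in the other 7. Each of the 8 genes was highest in Sham mouse 3, by 2.06-fold (Clic6) to 15.7-fold (Ttr) over the next highest library. Among the 20014 genes with 10 counts or more in at least 1 library, 65 (0.325%) stood more than 2 times above the next highest library in Sham mouse 3, and the 8 transcripts were among them. The same measure held for 27 to 433 genes in each of the other libraries, the 433 being those of BCAS mouse 1, and for none of the 8 transcripts. Since Sham mouse 3 held 59.5% or more of the summed Sham level of every one of the 8 genes, the edgeR fold change of each is given with and without it.

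**Figure D1:**
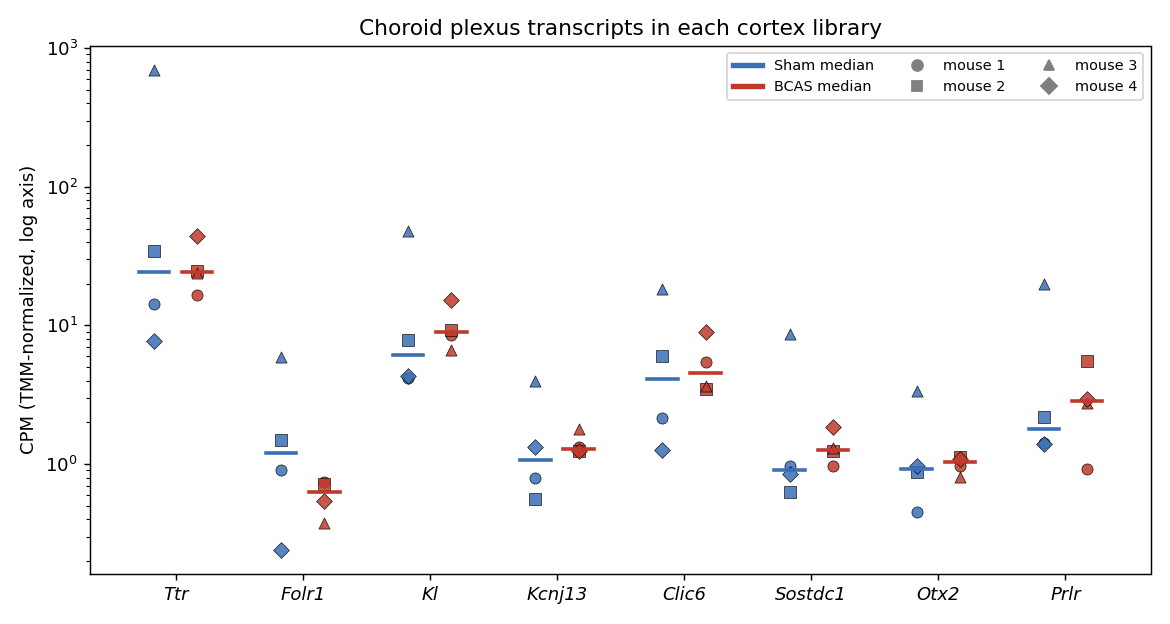
Level of each of the 8 choroid plexus transcripts in each library, as TMM-normalized CPM on a log axis. Each point is 1 mouse (Sham blue, BCAS red, the shape giving the mouse number) and each bar the group median. The triangle of Sham mouse 3 is the highest point of every gene, at 696 CPM for Ttr, and the other Sham points overlap the BCAS points for every gene but Sostdc1.

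Of the secreted carriers, Ttr was the most abundant. Ttr, on chr18:20665280-20674321 of mm10, encodes transthyretin, which carries thyroxine and, in a complex, retinol, and is among the most abundant transcripts of the choroid plexus epithelium. Its level was 14.4, 34.2, 696 and 7.72 CPM in Sham mice 1 to 4, and 16.7, 24.6, 24.0 and 44.4 CPM in BCAS mice 1 to 4. Sham mouse 3 lay far above all others and held 92.5% of the summed Sham level, and the other 3 Sham mice spanned a range that contained 3 of the 4 BCAS mice. The means were 188 ± 339 CPM (SD, n = 4) in the Sham and 27.4 ± 11.9 CPM (SD, n = 4) in the BCAS group. The log2 fold change of BCAS against Sham was -2.78 (SE 1.29, edgeR, adjusted p = 0.121) over all 8 mice and 0.54 (SE 0.51, adjusted p = 0.443) without Sham mouse 3.

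Per kilobase of annotated exon, the scale on which genes can be compared with each other, Ttr also led. Its level was 587 RPKM (CPM per kilobase) in Sham mouse 3 and 6.51 to 37.4 RPKM in the other 7 libraries. The other 7 genes lay between 0.80 RPKM (Otx2) and 5.18 RPKM (Kl) in Sham mouse 3. Over the other 7 libraries their medians lay between 0.14 RPKM (Prlr) and 0.99 RPKM (Kcnj13). The order in Sham mouse 3 was Ttr, Kl, Sostdc1, Clic6, Kcnj13, Folr1, Prlr and Otx2. Over the other 7 libraries the order of the medians was Ttr, Kcnj13, Clic6, Kl, Sostdc1, Folr1, Otx2 and Prlr, and apart from Ttr the ranges of neighbours in this order overlapped. The exon lengths, 1186 bases for Ttr to 15339 bases for Prlr, cover all annotated isoforms, so a gene transcribed from a short isoform is understated on this scale.

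Sostdc1 and Kl are the other genes with a secreted product. Sostdc1 (chr12:36314139-36318452) encodes a secreted antagonist of bone morphogenetic protein and Wnt signaling. It was measured at 0.97, 0.62, 8.64 and 0.84 CPM in Sham mice 1 to 4, and at 0.97, 1.24, 1.30 and 1.85 CPM in BCAS mice 1 to 4. Sham mouse 3 was again above every other library, whereas all 4 BCAS mice lay above the 3 remaining Sham mice, BCAS mouse 1 only just. Between the groups, the log2 fold change was -1.06 (SE 0.81, edgeR, adjusted p = 0.333) with all mice and 0.70 (SE 0.33, adjusted p = 0.146) without Sham mouse 3. Sostdc1 is the 1 gene of the 8 for which the remaining mice did not overlap between the groups, against 42.6% of all tested genes, and this difference did not pass the test. Over all 8 mice the groups overlapped for each of the 8 genes, whereas they did not overlap for 34.8% of all tested genes.

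Kl (chr5:150952607-150993817) encodes Klotho, a membrane protein whose outer part is shed and which serves as a coreceptor for fibroblast growth factor 23. It reached 4.21, 7.86, 48.3 and 4.28 CPM in Sham mice 1 to 4, against 8.53, 9.27, 6.64 and 15.3 CPM in BCAS mice 1 to 4. Apart from Sham mouse 3, which was highest, 3 of the 4 BCAS mice lay above the highest of the remaining Sham mice, and BCAS mouse 3 lay below Sham mouse 2. The log2 fold change was -0.71 (SE 0.76, edgeR, adjusted p = 0.492) with all mice. Without Sham mouse 3 it was 0.86 (SE 0.35), the lowest adjusted p of the 8 genes in that fit, which at 0.0978 missed the threshold.

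Among the transporters and channels, Folr1 was the gene whose direction did not turn on Sham mouse 3. Folr1 (chr7:101858331-101870788) encodes the folate receptor alpha, which takes folate across the epithelium into the cerebrospinal fluid. Its level was 0.91, 1.5, 5.95 and 0.24 CPM in Sham mice 1 to 4, and 0.75, 0.72, 0.38 and 0.54 CPM in BCAS mice 1 to 4. These were 4 to 24 counts outside Sham mouse 3, with Sham mouse 4 the lowest library and Sham mouse 2 the next highest, so the BCAS mice lay inside the range of the Sham mice. The log2 fold change was -1.83 (SE 0.80, edgeR, adjusted p = 0.105), and -0.55 (SE 0.56, adjusted p = 0.476) without Sham mouse 3.

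Clic6 (chr16:92485736-92541243) encodes a member of the chloride intracellular channel family. It was present at 2.16, 5.99, 18.4 and 1.27 CPM in Sham mice 1 to 4, and at 5.45, 3.45, 3.67 and 8.94 CPM in BCAS mice 1 to 4. Sham mouse 3 was highest by the smallest ratio to the next library among the 8 genes, although over the mean of the other Sham mice its 5.85-fold excess was larger than those of Kcnj13 (4.41-fold) and Otx2 (4.41-fold), and Sham mouse 2 lay above 3 of the 4 BCAS mice. BCAS against Sham gave a log2 fold change of -0.37 (SE 0.73, edgeR, adjusted p = 0.716), and 0.77 (SE 0.56, adjusted p = 0.321) without Sham mouse 3.

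Kcnj13 (chr1:87386363-87394729) encodes the inwardly rectifying potassium channel Kir7.1 of the apical membrane. The values were 0.80, 0.56, 3.95 and 1.33 CPM in Sham mice 1 to 4, and 1.32, 1.24, 1.78 and 1.25 CPM in BCAS mice 1 to 4. After Sham mouse 3, the highest library was BCAS mouse 3, and Sham mouse 4 lay level with BCAS mouse 1. The log2 fold change was -0.25 (SE 0.55, edgeR, adjusted p = 0.744), and 0.63 (SE 0.36, adjusted p = 0.210) without Sham mouse 3. Kcnj13 shares 49.1% of its exon bases with Gigyf2 on the opposite strand, and pairs were counted without regard to strand, so its level is less sure than that of the other genes, of which Otx2 shares 3.98%, Prlr 1.32% and the remaining 5 none of their exon bases.

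The last pair are a receptor and a transcription factor. Prlr (chr15:10177238-10349180) encodes the prolactin receptor, through which the choroid plexus binds prolactin of the blood. It stood at 1.42, 2.18, 19.8 and 1.39 CPM in Sham mice 1 to 4, and at 0.92, 5.56, 2.75 and 2.94 CPM in BCAS mice 1 to 4. Sham mouse 3 was highest and BCAS mouse 1 lowest, with BCAS mouse 2 above the rest of its group, the widest spread of the 8 genes among BCAS mice on the log2 scale. Its log2 fold change was -1.03 (SE 0.91, edgeR, adjusted p = 0.400), and 0.86 (SE 0.55, adjusted p = 0.260) without Sham mouse 3.

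Otx2 (chr14:48657677-48673819) encodes a homeodomain transcription factor needed for the formation and upkeep of the choroid plexus, which also releases OTX2 protein. It was measured at 0.45, 0.87, 3.38 and 0.97 CPM in Sham mice 1 to 4, and at 0.97, 1.13, 0.81 and 1.09 CPM in BCAS mice 1 to 4. Outside Sham mouse 3 these were 8 to 22 counts, and Sham mouse 4 lay level with BCAS mouse 1, so the groups overlapped. In the fit of the groups, the log2 fold change was -0.50 (SE 0.55, edgeR, adjusted p = 0.502), and 0.38 (SE 0.35, adjusted p = 0.425) without Sham mouse 3. Otx2os1, which lies antisense to Otx2 and shares exon bases with it, had 10 counts in Sham mouse 3 and 0 to 2 counts in the other 7 libraries.

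Whether the 8 transcripts differed between BCAS and Sham mice was asked in the fit over all genes. By edgeR's quasi-likelihood test, where a call needed a log2 fold change beyond 1 in either direction and an adjusted p under 0.05, 0 of the 8 were called, whereas 12.2% of all tested genes were called (11.0% higher and 1.28% lower in BCAS). At an unadjusted p under 0.05, 1 of the 8 passed, namely Folr1, against 46.2% of the tested genes. All 8 log2 fold changes of edgeR were negative over the 8 mice, with a median of -0.87 beside -0.01 for all tested genes. Without Sham mouse 3, 7 of the 8 were positive, their median was 0.67, again 0 of the 8 were called, and 11.9% of all tested genes were called. In that fit 1 of the 8, Kl, passed at an unadjusted p under 0.05, against 43.0% of the tested genes. Over all 8 mice, DESeq2 called 0 of the 5 transcripts to which it gave an adjusted p, with 1 at an unadjusted p under 0.05, and gave none for Ttr, Kl and Sostdc1. limma-voom called 0 of 8, with 0 at an unadjusted p under 0.05, and gave log2 fold changes above 0 for Kl (0.03), Kcnj13 (0.13) and Clic6 (0.24). The exact two-sided permutation test of the group means, whose smallest possible p over 70 arrangements is 0.0286, gave p between 0.229 and 1.0 for the 8 genes.

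**Figure D2:**
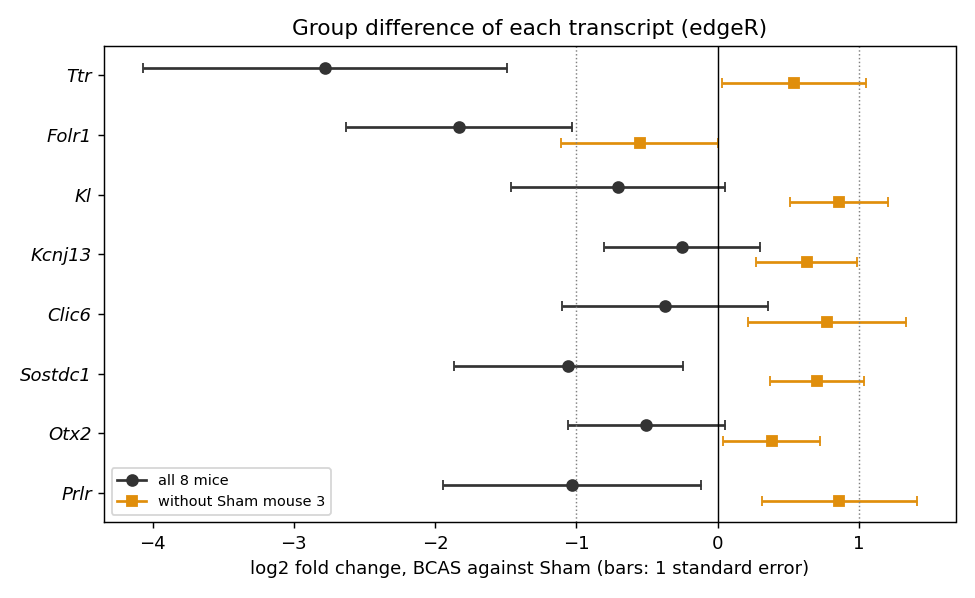
Log2 fold change of BCAS against Sham for each of the 8 transcripts, with bars of 1 standard error (edgeR); black circles are fits over all 8 mice and orange squares fits without Sham mouse 3. The circles all lie left of 0, whereas 7 of the 8 squares lie right of it; the dotted lines mark the fold threshold of 1 on the log2 scale.

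The 3 other Sham mice still differed among themselves in these transcripts. The SD of log2 CPM over the 4 Sham mice was 1.10 (Otx2) to 2.87 (Ttr), at or above the 99th percentile of all tested genes, whose median SD was 0.159. Without Sham mouse 3, the SD was 0.28 (Sostdc1) to 1.13 (Folr1), beside a median of 0.128, and Folr1, Clic6 and Ttr were at or above the 99th percentile. In the BCAS group, the SD was 0.20 (Otx2) to 1.02 (Prlr), beside a median of 0.273. There Prlr was at the 97.1th percentile, and the other 7 genes lay between the 35.5th and 85.4th. At 4 to 24 counts, part of the spread of Folr1 is counting error.

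The make-up of the 8 transcripts also differed in Sham mouse 3. Ttr made up 86.5% of their summed counts there (exact 95% binomial interval 86.0 to 87.1%), against 42.8% (Sham mouse 4) to 63.6% (Sham mouse 2) in the other 7 libraries. Kl made up 6.0% (5.6 to 6.4%) in Sham mouse 3 and 14.6 to 24.0% elsewhere, and Clic6 2.28% (2.04 to 2.54%) in Sham mouse 3 and 7.02 to 15.3% elsewhere. The interval of Sham mouse 3 did not meet that of any other library for Ttr, Kl, Clic6 and Otx2, and met that of at least 1 other library for Folr1, Kcnj13, Sostdc1 and Prlr. These intervals cover counting error only. For every 100 counts of Ttr, there were 6.94 counts of Kl in Sham mouse 3 and 23.0 to 55.5 in the other libraries. In BCAS mice Ttr made up 46.9 to 58.2% of the summed counts, inside the range of the 3 other Sham mice.

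**Figure D3:**
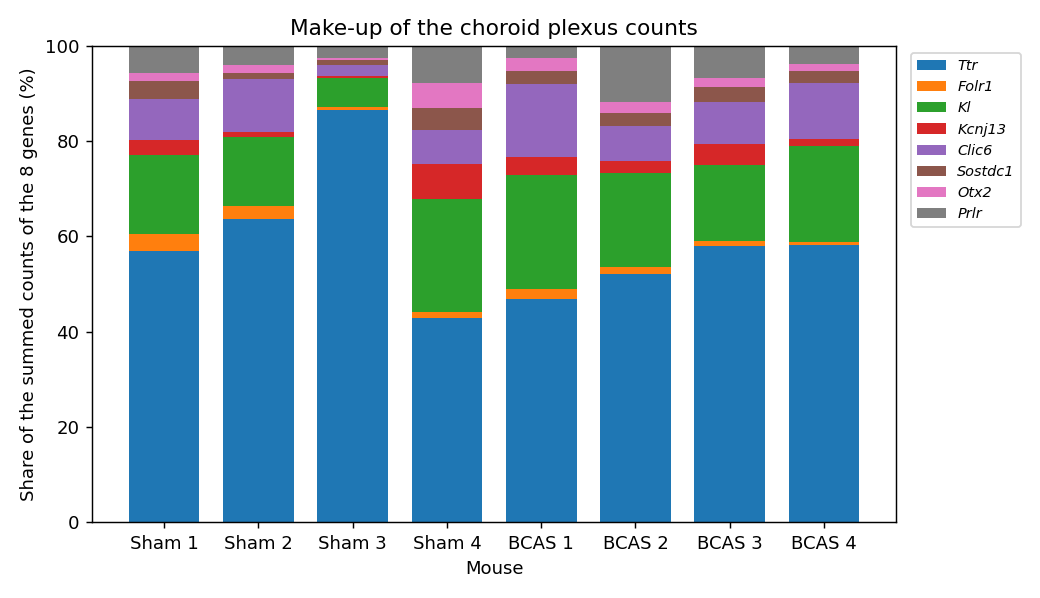
Share of each of the 8 transcripts in their summed counts, in percent, for each mouse (stacked bars from 0 to 100%). Ttr, at the bottom, fills 86.5% of the bar of Sham mouse 3 and 42.8 to 63.6% of the other bars.

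A longer list of genes known from choroid plexus epithelium, with 41 genes in the tables, 27 of them tested, was examined next to the 8. Of its 38 genes with 10 counts or more in a library, 19 were highest in Sham mouse 3, against 12.6% of all genes with that many counts, and 9 of the 19 by more than 2-fold. Another 11 of the 38 were highest in BCAS mouse 1, against 32.5% of all such genes. The largest excesses were those of Tmem72, a membrane protein, at 208 counts against 2 to 22 elsewhere (9.93-fold over the next highest in CPM), of Slc4a5, the sodium bicarbonate cotransporter NBCe2, at 181 against 1 to 24 (7.92-fold), and of Kcne2, a potassium channel subunit, at 109 against 6 to 17 (6.73-fold). Cldn2, a claudin of leaky tight junctions, stood at 116 counts against 1 to 23 (5.30-fold), and F5, coagulation factor V, at 265 against 24 to 70 (4.93-fold). Prr32, Krt18, Calml4 and Steap1 made up the 9, at 3.15- to 3.46-fold. These 9 genes were picked out after their values were seen, and 8 of them failed the filter on low counts. Of the genes on no list, Mfrp, a membrane frizzled-related protein, had 170 counts in Sham mouse 3 and 2 to 15 elsewhere (11.1-fold).

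Of the 41 genes of the longer list, 32 were higher in Sham mouse 3 than in every other Sham mouse, against 26.4% of all tested genes. The most abundant genes of the list did not follow. Atp1b1, a subunit of the sodium pump that neurons also use, was at 1549 CPM in Sham mouse 3 and 1655 to 1672 CPM in the other Sham mice, Car2, a carbonic anhydrase, at 162 against 201 to 217 CPM, and Slc12a2, the sodium potassium chloride cotransporter, at 105 against 116 to 124 CPM. Enpp2, which encodes autotaxin, was an exception at 562 CPM in Sham mouse 3 and 273 to 284 CPM in the other Sham mice. Of the 27 tested genes, 5 were called, all higher in BCAS mice, beside 11.0% of all tested genes called higher. Of these 5, 4 are described here. Of these 4, Igfbp2, Igf2 and Foxj1 were lower in Sham mouse 3 than in every BCAS mouse, and Lbp was not. Igfbp2 and Igf2, which meninges also express, rose by 1.66 (SE 0.34, edgeR, adjusted p = 0.0091) and 1.34 (SE 0.34, adjusted p = 0.0206) on the log2 scale. Foxj1, a regulator of motile cilia and an ependymal marker, rose by 1.23 (SE 0.25, adjusted p = 0.0096), and Lbp, the lipopolysaccharide-binding protein, by 2.93 (SE 0.79, adjusted p = 0.0242). All 4 were also called without Sham mouse 3. The median of the 27 was 0.55, and 0.80 without Sham mouse 3. In that fit 6 were called, all higher, beside 10.4% of all tested genes called higher.

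Markers of other cells that a piece of cortex can bring along were read beside the 8 transcripts. In Sham mouse 3 the summed level of 15 ependymal markers was 45.0 CPM, against 44.2 to 49.1 CPM in the other Sham mice, with Mia at 0 in every library. That of 21 leptomeningeal and perivascular fibroblast markers was 1184 CPM, against 1024 to 1224 CPM. That of 6 markers of fenestrated endothelium was 420 CPM, against 344 to 399 CPM, that of 4 hemoglobin genes 74.6 CPM, against 56.7 to 76.7 CPM, and that of 12 microglial markers 455 CPM, against 491 to 552 CPM. Neuron markers of other regions were at 522 CPM for 14 striatal genes (409 to 751 CPM in the other Sham mice), 252 CPM for 10 hippocampal genes (152 to 189 CPM) and 139 CPM for 10 thalamic genes (120 to 150 CPM), and the 14 cortical excitatory markers at 2711 CPM (2976 to 3150 CPM). So in Sham mouse 3 the ependymal, fibroblast, striatal, thalamic and hemoglobin sums lay inside the range of the other Sham mice, the hippocampal and fenestrated endothelial sums above it, and the microglial and cortical excitatory sums below it. Of the hippocampal markers 6 of 10, and of the fenestrated endothelial markers 2 of 6, were higher in Sham mouse 3 than in every other Sham mouse, against 26.4% of all tested genes. The most abundant of the 6, Wfs1, stood at 180 CPM in Sham mouse 3 (79.1 to 119 CPM in the other Sham mice). C1ql2, a marker of the dentate gyrus, stood at 6.69 CPM (1.15 to 3.92 CPM). Prox1, the next most abundant hippocampal marker after Wfs1, was lower in Sham mouse 3, at 20.1 CPM (23.8 to 24.0 CPM). Fibcd1, at 9.38 CPM (10.4 to 12.7 CPM), and Trpc6, at 11.1 CPM (12.1 to 14.1 CPM), were also lower. Of the fenestrated endothelial markers, Nrp2, which neurons also express, stood at 92.3 CPM (30.0 to 44.7 CPM). Without Wfs1 the hippocampal sum was 71.8 CPM in Sham mouse 3 (66.0 to 73.2 CPM in the other Sham mice). Without Nrp2 the fenestrated endothelial sum was 328 CPM (309 to 358 CPM). With these genes left out, the sums lay inside the range of the other Sham mice. C1ql2, Fibcd1, Trpc6 and Plvap were picked after their values were seen. Plvap, the diaphragm protein of fenestrated capillaries, stood at 10.3 CPM against 9.41 to 12.1 CPM. The median log2 ratio of Sham mouse 3 over the mean of the other Sham mice was 2.95 for the 8 transcripts, 0.71 for the tested genes of the longer choroid plexus list and between -0.22 and 0.34 for these other lists, beside -0.03 for all tested genes. The part of any other tissue in the level of the 8 transcripts was not tested.

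**Figure D4:**
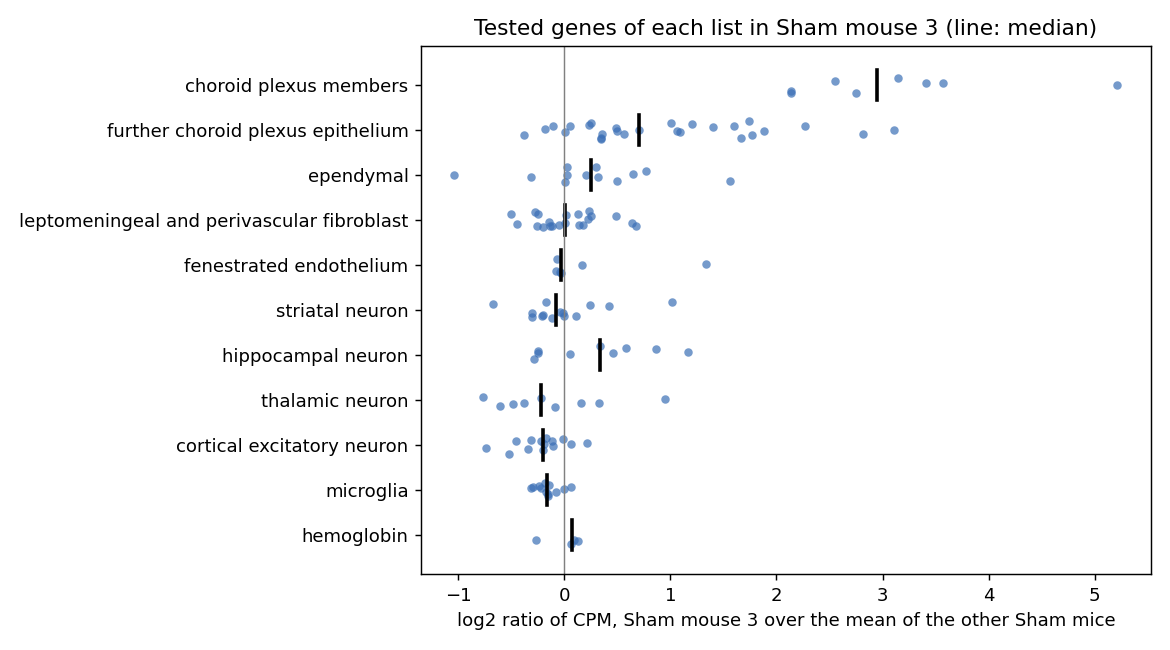
Log2 ratio of the CPM in Sham mouse 3 over the mean of the other 3 Sham mice, for each tested gene (point) of each list, with the list median as a black line. The 8 choroid plexus transcripts lie between 2.14 and 5.21, and the medians of the lists of other cell types lie between -0.22 and 0.34.

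Among the remaining 7 libraries, the summed level of the 8 transcripts was highest in BCAS mouse 4 (76.2 CPM) and Sham mouse 2 (53.8 CPM). The summed striatal markers were highest in the same mice, at 1196 and 751 CPM, against 409 to 621 CPM in the other 5. Sham mice 1 and 4 were lowest in both sums. This is a description of 7 libraries that was seen in the data, and the relation was not tested.

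The lists were also counted between the groups, to be read beside the 11.0% of all tested genes called higher and the 1.28% called lower, or 10.4% and 1.47% without Sham mouse 3. Without Sham mouse 3, the median log2 fold change was 0.67 for the 8 transcripts, 0.64 for the ependymal, 0.64 for the thalamic, 0.54 for the striatal and 0.83 for the fenestrated endothelial list, beside 0.00 for all tested genes. It was 3.76 for the microglial, 1.47 for the fibroblast, 0.47 for the hemoglobin, 0.35 for the hippocampal and -0.89 for the cortical excitatory list. With all mice, all 12 microglial markers were called higher in BCAS mice, and Ctss, a lysosomal protease, went from 54.6 ± 4.40 to 1060 ± 623 CPM (SD, n = 4 each). Of the fibroblast markers, 15 of 21 were called higher, with Col3a1, a fibrillar collagen, at 5.71 ± 1.37 in Sham and 121 ± 83.9 CPM in BCAS mice (SD, n = 4 each). Of the tested ependymal markers 3 of 12, of the fenestrated endothelial markers 2 of 6, of the striatal markers 1 of 14 and of the thalamic markers 1 of 9 were called higher. Without Sham mouse 3 the striatal call, Isl1, was lost (adjusted p = 0.0912, edgeR), and the fenestrated endothelial count was 3 of 6. Of the hippocampal markers 2 of 9 were called higher and 1 lower, of the hemoglobin genes 0 of 4 in either direction, although Hbb-bs and Hba-a1 had adjusted p of 0.0155 and 0.0289 at log2 fold changes of 0.58 and 0.41. Of the cortical excitatory markers 3 of 14 were called lower, with Tbr1, a transcription factor of deep-layer neurons, at 203 ± 25.5 in Sham and 94.7 ± 40.7 CPM in BCAS mice (SD, n = 4 each), and 2 of 14 without Sham mouse 3. The BCAS libraries held more microglial and fibroblast RNA and less cortical neuron RNA relative to the total, and a level in CPM is a share of this total.

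The genes that act with the 8 were counted in the same way, the members themselves included in these lists, and beside the same shares of all tested genes, 11.0% higher and 1.28% lower. All values in this comparison are over the 8 mice unless Sham mouse 3 is said to be left out. Of 17 tested genes of thyroxine and retinol handling, 4 were called higher and 0 lower, and Ttr was not among them (3 higher without Sham mouse 3). The called genes included Aldh1a2, a retinoic acid synthase, with a log2 fold change of 1.43 (SE 0.24, edgeR, adjusted p = 0.0046), and Crabp2, a retinoic acid binding protein, with 1.40 (SE 0.27, adjusted p = 0.0075). Of 15 tested genes of folate handling, 3 were called higher and 0 lower, namely the enzymes Tyms, Ggh and Mthfd2, whereas Folr1 was not called. Mthfd2 was no longer called without Sham mouse 3 (0.96 on the log2 scale, adjusted p = 0.0526, edgeR), whereas Folr2, another folate receptor, then passed the filter and was called higher (adjusted p = 0.0235), which leaves 3 of 16. Folr2 rests on 2 or 3 counts in each Sham and 6 to 38 counts in each BCAS library. Of 8 tested Klotho and fibroblast growth factor receptor genes, 1 was called, Adam17, a sheddase that can release Klotho, with 1.9 (SE 0.29, adjusted p = 0.0034). Of 15 tested antagonists of BMP and Wnt, 3 were called higher and 1 lower, Frzb, with -1.01 (SE 0.14, adjusted p = 0.0028). These were 1 higher and 1 lower without Sham mouse 3. Of 11 tested genes of prolactin and growth hormone receptor signaling, 4 were called higher (3 without Sham mouse 3) and 0 lower, among them Igf1 with 2.41 (SE 0.42, adjusted p = 0.0056) and the feedback inhibitor Socs3 with 1.9 (SE 0.41, adjusted p = 0.0113). The medians of these 5 lists lay between -0.23 and 0.48 on the log2 scale.

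The 10 genes whose log2 CPM followed the log2 summed level of the 8 transcripts most closely over the 8 libraries, out of 17128 other tested genes, were Smg8, Trpm3, Edc3, Abca4, Btg3, Ovca2, Gm17383, Irs2, Zfp618 and Gon7, with Pearson's r from 0.958 down to 0.895. Trpm3, a cation channel, stood at 84.2 CPM in Sham mouse 3 and at most 53.4 CPM elsewhere, and Abca4, a lipid transporter and the one gene of the longer choroid plexus list among the 10, at 11.2 against at most 6.43 CPM. On deviations from the group means, the 10 were Rnf182, Cab39l, Tiparp, Zfp618, Prkdc, Abca4, Tnfrsf25, Smg8, Naf1 and Gm17383, with r from 0.990 to 0.956, and 4 of them were also in the first 10. Over the 7 libraries without Sham mouse 3, 0 of the first 10 recurred. These r values describe 8 libraries that share their depth and tissue, and Sham mouse 3 sets the range of the summed level.

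Promoter sequences were looked up because the genes moved together in Sham mouse 3 and Otx2 is one of them. The RefSeq table for GRCm38.p6 held windows for 4 of the 8 genes, Kcnj13, Kl, Otx2 and Prlr, with 9 start sites in all. Ttr, Folr1, Clic6 and Sostdc1 had no entry. The letters TAATCC, the core bound by bicoid-type homeodomain proteins such as OTX2, were searched on both strands (reverse complement GGATTA) in the 250 bases before each start. They were found in 1 of the 9 windows, one of the 4 of Otx2, and in 6.25% of 32851 promoters of the same length. The matching window lies wholly inside annotated exon, and 2 of the other Otx2 windows overlap each other, so the 9 windows are not independent. A match is a description of letters and not a bound site. The stretch with the match, with the motif in capitals, and the windows of the 2 genes with a single start site follow, 5′ to 3′ on the strand of the gene.
Otx2, chr14:48665305-48665330, minus strand: tgtgcccctcGGATTAtctcgttagt
Kcnj13, chr1:87394730-87394979, minus strand: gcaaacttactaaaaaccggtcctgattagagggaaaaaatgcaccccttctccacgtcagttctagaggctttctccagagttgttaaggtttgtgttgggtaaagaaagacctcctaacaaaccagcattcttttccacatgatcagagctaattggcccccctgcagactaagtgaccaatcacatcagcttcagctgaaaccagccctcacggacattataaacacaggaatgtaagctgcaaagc
Kl, chr5:150952357-150952606, plus strand: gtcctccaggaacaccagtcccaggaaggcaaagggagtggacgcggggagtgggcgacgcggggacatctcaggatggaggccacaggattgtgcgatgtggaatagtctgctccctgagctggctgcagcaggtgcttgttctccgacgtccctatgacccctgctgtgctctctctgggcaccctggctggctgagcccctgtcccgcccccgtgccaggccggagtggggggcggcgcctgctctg
The window of Kl holds 66.8% G and C and that of Kcnj13 45.2%, beside a median of 52.4% over all promoters. The window of Kcnj13, an A- and T-richer sequence, and that of Kl, a G- and C-rich one, belong to genes that were both highest in Sham mouse 3, by 2.21-fold and 3.16-fold over the next highest library.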

How the data were processed

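RNA-seq libraries of 8 mice (4 Sham, 4 BCAS) were grouped by the labels. Per the methods, the file headers and the submitters' processing notes, the authors trimmed the 150-base pairs (Trim Galore), aligned them to mm10 (HISAT2, SAMtools 1.9) and counted pairs on exons per gene without strand. The deposited counts are raw. The headers name featureCounts 2.0.1 and GENCODE vM20, the notes featureCounts 1.6.3. Symbols came from GENCODE vM21 by gene ID (54723 of 54752 matched).

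Counts were tested with edgeR 4.0.16 (R 4.3.3; TMM, factors 0.949 to 1.05; filterByExpr, minimum count 10, minimum total 15; quasi-likelihood F-test, no covariates) on all genes, with Benjamini-Hochberg adjustment. Genes were called at adjusted p under 0.05 and absolute log2 fold change above 1. SE was derived from the fold change and F. CPM are TMM-normalized, and log2 CPM used a prior count of 2. Shares have exact Clopper-Pearson 95% intervals. Alternatives were other normalizations, filters, thinning, robust edgeR, DESeq2 1.42.0, limma-voom (limma 3.58.1), a replicate block and leaving out each mouse. The fits were tested on simulated data. Python 3.11.15 and matplotlib 3.10.9 were also used.

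The members and the lists were chosen with earlier results of these data known. Named genes are the 8 members, the 10 most alike by each of 2 measures, and, where a result turned on them, the 4 most abundant and the called genes of the longer choroid plexus list and the 2 most abundant and up to 3 called genes of each other list. Other genes were named after their values were seen. The values of 1 called gene of the longer list are not reported here.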

Additional observations from a re-analysis of the deposited data

Results flagged for a closer look

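In 4 of the 8 genes the value of Sham mouse 3 lay farther from its group than Dixon's test allows for 4 samples, at 696 CPM for Ttr, 48.3 CPM for Kl, 8.64 CPM for Sostdc1 and 19.8 CPM for Prlr. The same held for the summed level of the 8 genes, at 804 CPM against 18.0 to 53.8 CPM in the other Sham mice. In the BCAS group, Kcnj13 in mouse 3 stood at 1.78 CPM, against 1.24 to 1.32 CPM in the other BCAS mice.

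Among the lists, the longer choroid plexus list summed to 2900 CPM in Sham mouse 3 (2510 to 2570 CPM in the other Sham mice) and to 2030 CPM in BCAS mouse 1 (2240 to 2250 CPM in the other BCAS mice). The thyroxine and retinol list summed to 1860 CPM in Sham mouse 3 against 1090 to 1220 CPM, and Ttr is one of its genes. The list of BMP and Wnt antagonists summed to 497 CPM in Sham mouse 3 against 650 to 670 CPM, and Dkk3, its most abundant gene, stood at 311 against 472 to 492 CPM. Without Dkk3 the other 16 genes of this list summed to 186.2 CPM in Sham mouse 3, above the 178.0 to 178.1 CPM of the other Sham mice. The remaining sums stood apart within their groups, the fibroblast list in BCAS mouse 2 (1830 CPM), the striatal list in BCAS mouse 4 (1200 CPM) and the hemoglobin list in Sham mouse 4 (56.7 CPM). Chance marks about 1 in 20 groups by this test, and it marked 5.76% of all tested genes in the Sham and 3.88% in the BCAS group.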

How the results depend on the processing

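Of the refitted fold changes of the 8 transcripts, 128 kept direction and 13 turned, and none was called. Leaving out Sham mouse 3 turned 7 of them. The ranges when 1 mouse was left out, whose upper end is the value without Sham mouse 3, were -3.19 to 0.54 (Ttr), -1.03 to 0.86 (Kl), -0.54 to 0.63 (Kcnj13), -0.73 to 0.77 (Clic6), -1.39 to 0.70 (Sostdc1), -0.81 to 0.38 (Otx2), -1.51 to 0.86 (Prlr) and -2.21 to -0.55 (Folr1, which kept its direction). limma-voom turned Kl (0.03), Kcnj13 (0.13) and Clic6 (0.24), and the replicate block turned Kl (0.14), Kcnj13 (0.07) and Clic6 (0.17); the cause was not tested. The fold changes that kept their direction were smaller in both, at -0.68 and -0.43 for Ttr, -1.03 and -1.19 for Folr1, -0.21 and -0.23 for Sostdc1, -0.12 and -0.17 for Otx2, and -0.32 and -0.24 for Prlr. The log2 ratio of the mean summed levels, -2.17, ranged from -2.56 to 0.63 when 1 mouse was left out, 0.63 being the value without Sham mouse 3. Without Ttr the sum was 108 CPM in Sham mouse 3 and 22.6, 17.3 and 31.9 CPM in BCAS mice 2 to 4. No member with an adjusted p was called under any setting, which is 0 of 8, or 0 of 5 by DESeq2 and with at least 10 counts in every library. Over all genes, 2097 were called, 5490 at an adjusted p alone, 1809 with the replicate block, and 1644 to 2967 when 1 mouse was left out; without Sham mouse 3, 1820 calls were shared (86.8% of the calls with it, 87.0% of those without). Same-numbered mice did not deviate together (r -0.045, -0.103, -0.008 and 0.001), so the numbers were not taken as pairs. Of the 10 most alike genes, 4 recurred on deviations and 0 over 7 libraries, a setting added after the data were seen. Folr1, Otx2, Sostdc1 and Kcnj13 rest on 4 to 34 counts outside Sham mouse 3, which limits what their values can show.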

Other observations

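Genes outside the choroid plexus lists that were more than 2 times higher in Sham mouse 3 than in any other library, chosen here after their values were seen, included activity-regulated early genes of neurons. Arc was at 521 CPM against at most 239 CPM elsewhere, Nr4a1 at 268 against 122 CPM, Fos at 118 against 57.4 CPM, Nr4a3 at 64.3 against 28.2 CPM and Egr2 at 46.6 against 18.1 CPM. The largest ratio was that of the pseudogene Gapdh-ps15, with 106 counts against 0 to 3, which shares sequence with its parent gene and is measured less surely. The part of these genes in the group comparisons was not tested.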
